A study of Mus musculus with 2 samples.

Results

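The genes described here carry new proteins into the endoplasmic reticulum (ER) and fold them there. They are 39 of the 27775 gene entries in the files, chosen by name and not by their values, and all 39 were found. They were grouped by step into 12 genes of the translocon and its targeting, 5 of the signal peptidase, 15 chaperones and retrieval receptors, 4 genes of the ER stress response and 3 transcription factors of secretory cells. The study profiled single cells of the lacrimal gland, which makes the watery part of tears, in mice of the CD1 strain at postnatal day 4 (P4) and embryonic day 16 (E16). Each stage was 1 library of pooled glands, dissociated with a collagenase blend (Liberase TM) and DNase I. The labels give no transgene, no treatment and no number of pooled animals. Since a stage is a single library, the spread between animals is unknown and no test between stages could be made. Intervals are 95% intervals and cover counting error only.

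A protein bound for secretion is threaded into the ER through the Sec61 channel, usually while it is still being made, and the signal peptidase then cuts off its leading signal sequence. Chaperones such as BiP, encoded by Hspa5, and disulfide isomerases fold it, and KDEL receptors bring escaped chaperones back from the Golgi. Unfolded protein in the ER switches on a stress response in which the factors encoded by Xbp1 and Atf4 raise the output of such genes, and gland cells that secrete heavily are known for a large ER.

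The P4 library kept 406 barcodes with at least 200 detected genes, with a median of 3767 unique molecular identifiers (UMIs, each standing for 1 captured transcript), and the E16 library kept 259 with a median of 5802. The 39 genes held 19786 of the 1975814 UMIs kept in P4 and 16536 of the 1711606 kept in E16, and 0 barcodes were shared by the libraries. Cells were clustered together with the 39 genes left out of the clustering, and clusters were named from marker genes. Epithelial-like cells numbered 98 in P4 and 87 in E16, and mesenchyme-like cells 171 in P4 and 79 in E16. Different clusters made up the epithelial-like class at the 2 stages. Of the P4 cells, 35 were in cluster 0, led by Mia, Fxyd3 and Krt14, 33 in cluster 9, led by Wfdc18, Krt18 and Krt8, 27 in cluster 15, led by the Dcpp genes, and 3 in cluster 3. Of the E16 cells, 48 were in cluster 0, 31 in cluster 3, led by Epcam, Perp and Col9a1, and 8 in cluster 9. Cluster 15 had 8 of the 21 epithelial markers detected in at least 20% of its cells but 0 among its 10 leading genes. Counting any UMI, 17 of the 21 were detected there, at 8312 CPM together. Levels are CPM, the UMIs of a gene per 1000000 UMIs of the class, with the UMIs of 5 secretory genes (Dcpp1, Dcpp2, Dcpp3, Smgc and Bpifa2) left out of the total. A gene was measured if it had at least 30 UMIs over both sides of a comparison, and a ratio of at least 2 in either direction was counted as higher or lower.

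Over all epithelial-like cells the entry steps were higher at P4 than at E16 and the summed chaperones were not, but the clusters shared by both stages did not all show this. The 12 translocon and targeting genes together had 3364 CPM at P4 and 2080 CPM at E16, a ratio of 1.62 (interval 1.51 to 1.74). The 5 signal peptidase genes had 2285 CPM at P4 and 1150 CPM at E16, a ratio of 1.99 (1.81 to 2.18). The 15 chaperones and retrieval receptors had 4679 CPM at P4 and 5401 CPM at E16, a ratio of 0.866 (0.823 to 0.912). At E16 these chaperones and receptors had 6254 CPM in cluster 3, 3424 CPM in cluster 0 and 4062 CPM in cluster 9. Cluster 3 held 428184 of the 626904 UMIs in the E16 totals but only 3 P4 cells. Within cluster 0 the ratios of these 3 steps were 1.11 (0.925 to 1.34), 1.59 (1.25 to 2.03) and 0.745 (0.629 to 0.880). Within cluster 9 they were 1.75 (1.37 to 2.27), 1.17 (0.909 to 1.52) and 1.004 (0.857 to 1.18). Of the 37 genes measured, 10 were at least 2-fold higher at P4, against 11.7% of all genes measured in these cells, and 1 was at least 2-fold lower, against 14.4%. The median log2 ratio was 0.62 for the measured genes and -0.12 for all genes. The levels of all 39 genes at both stages are plotted by step.

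**Figure D1:**
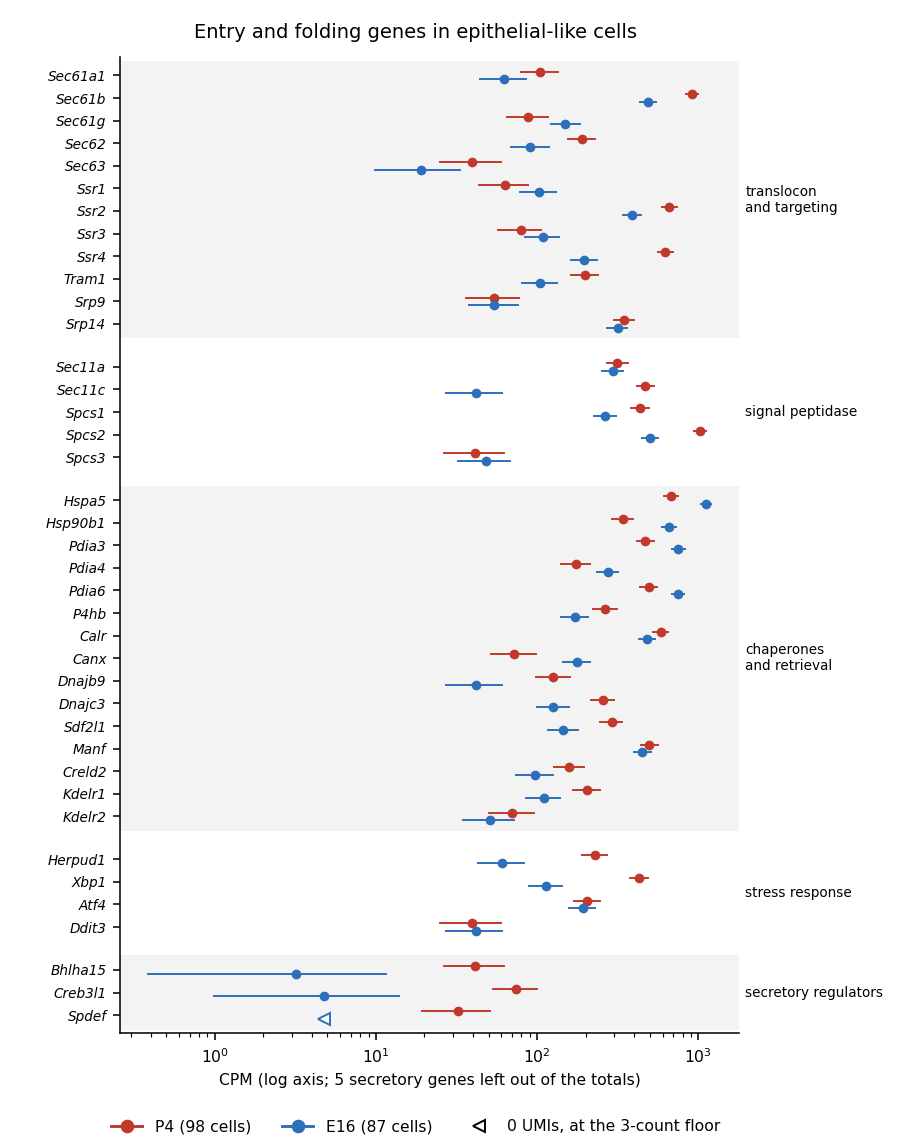
Level of each of the 39 genes in epithelial-like cells of P4 (98 cells, red) and E16 (87 cells, blue), in CPM on a log axis, by step; bars are 95% counting intervals and the open triangle marks 0 UMIs drawn at the floor of 3 counts. Sec11c stood at 470 CPM in P4 and 41.5 CPM in E16, while Hspa5 stood at 679 CPM in P4 and 1115 CPM in E16.

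Within the channel itself the members were unlike each other. Sec61b, a small subunit of the channel, had 913 CPM at P4 and 490 CPM at E16, a ratio of 1.86 (1.61 to 2.16). Sec61a1, which forms the pore, had 104 CPM at P4 and 62.2 CPM at E16, and Sec61g, the other small subunit, had 88.2 CPM at P4 and 149.9 CPM at E16, so that Sec61g alone of the 3 was lower at P4. Sec62 and Sec63 encode membrane partners of the channel that help it take up finished and short proteins. Sec62 had 105 UMIs at P4 and 57 at E16, a ratio of 2.08 (1.49 to 2.92). Sec63 had 22 UMIs at P4 and 12 at E16, and the interval of its ratio of 2.07 reached from 0.981 to 4.59. With each cell given equal weight the Sec63 ratio was 0.722, so its direction was not settled at this depth.

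The 4 subunits of the translocon-associated protein (TRAP) complex, which sits beside the channel, also split. Ssr4 had 347 UMIs in 66 cells at P4 and 123 UMIs in 46 cells at E16, or 625 and 196 CPM, a ratio of 3.18 (2.59 to 3.94). Ssr2 had 663 CPM at P4 and 388 CPM at E16, a ratio of 1.71 (1.45 to 2.02). Ssr1 was the other way, with 63.0 CPM at P4 and 102 CPM at E16, a ratio of 0.617 (0.397 to 0.946), and the interval of Ssr3 included 1. Tram1, which helps some signal sequences into the channel, had 198 CPM at P4 and 104 CPM at E16, a ratio of 1.91 (1.39 to 2.64). Srp9 and Srp14 encode the pair of proteins that lets the signal recognition particle slow the ribosome, and both had intervals that included 1 (ratios of 0.996 and 1.10).

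Sec11c had the highest ratio of the signal peptidase genes. The peptidase has 2 alternative catalytic subunits, encoded by Sec11a and Sec11c. Sec11c had 261 UMIs in 62 of 98 cells at P4 and 26 UMIs in 18 of 87 cells at E16, which gives 470 and 41.5 CPM and a ratio of 11.3 (7.56 to 17.7). Sec11a had 315 CPM at P4 and 295 CPM at E16, a ratio of 1.07 (0.864 to 1.32), so the 2 catalytic subunits differed in how far their levels lay apart between the stages. When each cell was thinned to 979 UMIs, 29.5% of 88 P4 cells and 3.49% of 86 E16 cells had a Sec11c UMI, against 63.3% and 20.7% without thinning. The unthinned cells had median depths of 3222 UMIs at P4 and 4897 UMIs at E16. After the same thinning 4.12% of 170 P4 and 1.30% of 77 E16 mesenchyme-like cells had a Sec11c UMI (15.2% and 21.5% without thinning, median depths of 4288 and 5754 UMIs), so the share in E16 epithelial-like cells was close to that of another class. No class here could stand for cells that lack Sec11c. Of the accessory subunits, Spcs2 had 1025 CPM at P4 and 502 CPM at E16, a ratio of 2.04 (1.77 to 2.35), and Spcs1 had 434 CPM at P4 and 263 CPM at E16, a ratio of 1.65 (1.35 to 2.02). Without the cell with the most Spcs2 UMIs on each side the Spcs2 ratio was 1.89. Spcs3 had 23 UMIs at P4 and 30 at E16, and its interval included 1.

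Over all epithelial-like cells, the abundant, general folding helpers among the chaperones were lower at P4 by less than 2-fold. Most E16 UMIs in this comparison came from cluster 3, which held few P4 cells. Hspa5, the ER member of the Hsp70 family, had 377 UMIs at P4 and 699 at E16, or 679 and 1115 CPM, a ratio of 0.609 (0.536 to 0.691). Hsp90b1, the ER member of the Hsp90 family, had 340 CPM at P4 and 659 CPM at E16, a ratio of 0.517 (0.433 to 0.615). The disulfide isomerase genes Pdia3, Pdia4 and Pdia6 had ratios of 0.624, 0.637 and 0.656, with intervals below 1 in each case. P4hb, the founding disulfide isomerase, went the other way with 265 CPM at P4 and 172 CPM at E16, a ratio of 1.54 (1.19 to 1.99). The 2 lectin chaperones that hold glycoproteins were also unlike each other. Calr had 585 CPM at P4 and 480 CPM at E16, whereas Canx had 40 UMIs at P4 and 111 at E16, or 72.0 and 177 CPM, a ratio of 0.407 (0.276 to 0.589). Canx was the member counted as lower, and its ratio in mesenchyme-like cells was 0.511 (0.354 to 0.735).

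The co-chaperones of BiP were higher at P4, in part through single cells. Dnajc3 had 256 CPM at P4 and 126 CPM at E16, a ratio of 2.03 (1.53 to 2.71), and 1 cell held 24.6% of its P4 UMIs; the ratio was 1.69 without the top cell on each side. Dnajb9 had 70 UMIs at P4 and 26 at E16, a ratio of 3.04 (1.91 to 4.97), but 1 P4 cell held 50% of them and the ratio without the top cells was 1.70. Sdf2l1, an ER protein that works with such co-chaperones, had 290 CPM at P4 and 145 CPM at E16, a ratio of 1.997 that lay just under the limit, and 1 cell held 26.7% of its P4 UMIs. Manf, a secreted ER stress protein, had 497 CPM at P4 and 450 CPM at E16, with an interval that included 1. Creld2, another ER stress gene, had a ratio of 1.63 (1.16 to 2.30). Of the KDEL receptors, Kdelr1 had 203 CPM at P4 and 110 CPM at E16, a ratio of 1.85 (1.36 to 2.53), and the interval of Kdelr2 included 1.

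Of the stress response genes, the pair Xbp1 and Herpud1 differed between the stages and the pair Atf4 and Ddit3 did not differ beyond counting error. The 4 genes together had a ratio of 2.22 (1.90 to 2.59) over all epithelial-like cells, but 0.976 (0.574 to 1.62) within cluster 0 and 1.05 (0.728 to 1.55) within cluster 9. Xbp1 encodes a factor whose transcript is spliced by the stress sensor IRE1, a step that these counts do not show. Xbp1 had 238 UMIs in 56 cells at P4 and 71 UMIs in 36 cells at E16, or 429 and 113 CPM, a ratio of 3.78 (2.89 to 5.01). Herpud1, which serves the removal of misfolded proteins, had 127 UMIs at P4 and 38 at E16, or 229 and 60.6 CPM, a ratio of 3.77 (2.61 to 5.57). Atf4, the effector of the stress sensor PERK, had 205 CPM at P4 and 191 CPM at E16, a ratio of 1.07 (0.823 to 1.40). Ddit3 encodes CHOP, a factor of prolonged stress, and had 22 UMIs at P4 and 26 at E16, a ratio of 0.955 (0.516 to 1.75).

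The 3 secretory regulators were scarce and were seen mainly at P4. Creb3l1 encodes a membrane-bound factor of secretory pathway genes and had 41 UMIs in 19 cells at P4 and 3 UMIs in 3 cells at E16, a ratio of 15.4 (4.92 to 77.9). Bhlha15, known as Mist1 and a factor of exocrine gland cells, had 23 UMIs in 14 cells at P4 and 2 UMIs in 2 cells at E16. Spdef, a factor of mucus-secreting cells, had 18 UMIs in 14 cells at P4 and 0 UMIs at E16, where 0 counts allow up to 4.79 CPM. Bhlha15 and Spdef were the 2 members that were not measured.

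The promoters of these genes were searched for letters that the ER stress factors are known to bind, because members of 1 pathway stood on both sides of a ratio of 1. RefSeq windows of the 250 bases before the start of each gene (build GRCm38.p6) were at hand for 31 of the 39 genes; Sec61a1, Ssr2, Tram1, Sec11c, Spcs3, Manf, Kdelr2 and Creb3l1 were not among them. The ER stress response element (ERSE), which is CCAAT, then 9 bases of any kind, then CCACG, was searched on both strands like the others. It was found in 7 of the 31 windows and in 0.113% of all 32851 windows. The 7 were those of Hspa5, Hsp90b1, Calr, Canx, Pdia6, Dnajc3 and Creld2. The shorter ERSE-II, which is ATTGG, then 1 base of any kind, then CCACG, and shares its letters with the first element or its reverse, was found in the window of Herpud1 and in 0.0304% of all windows. The exact letters of the unfolded protein response element TGACGTGG (0.563% of all windows) and the ATF4 element TGATGCAAT (0.167%) were found in 0 of the 31. Variants of these elements were not searched, so the windows may hold them. A match describes letters and does not show that a factor binds there. The windows of 5 genes are printed 5′ to 3′ on the strand of the gene, with the match in capitals. They are those of Hspa5 (chr2:34771840-34772089, plus strand), Hsp90b1 (chr10:86705445-86705694, minus strand, with 2 matches), Canx (chr11:50325674-50325923, minus strand), Dnajc3 (chr14:118937682-118937931, plus strand) and Herpud1 (chr8:94386179-94386428, plus strand).
Hspa5: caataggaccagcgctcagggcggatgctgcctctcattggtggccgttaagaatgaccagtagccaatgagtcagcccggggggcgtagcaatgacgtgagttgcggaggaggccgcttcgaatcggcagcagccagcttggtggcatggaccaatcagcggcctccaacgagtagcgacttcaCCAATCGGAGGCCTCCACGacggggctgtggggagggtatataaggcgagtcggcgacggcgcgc
Hsp90b1: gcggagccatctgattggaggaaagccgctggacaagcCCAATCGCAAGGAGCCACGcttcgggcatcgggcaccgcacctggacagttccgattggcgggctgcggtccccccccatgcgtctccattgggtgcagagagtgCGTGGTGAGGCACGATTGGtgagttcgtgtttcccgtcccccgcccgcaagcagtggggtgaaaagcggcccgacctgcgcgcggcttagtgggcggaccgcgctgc
Canx: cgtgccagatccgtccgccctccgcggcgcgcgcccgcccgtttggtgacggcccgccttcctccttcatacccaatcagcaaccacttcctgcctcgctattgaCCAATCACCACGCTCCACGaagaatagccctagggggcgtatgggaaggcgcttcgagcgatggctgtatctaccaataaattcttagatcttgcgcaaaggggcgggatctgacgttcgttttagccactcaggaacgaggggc
Dnajc3: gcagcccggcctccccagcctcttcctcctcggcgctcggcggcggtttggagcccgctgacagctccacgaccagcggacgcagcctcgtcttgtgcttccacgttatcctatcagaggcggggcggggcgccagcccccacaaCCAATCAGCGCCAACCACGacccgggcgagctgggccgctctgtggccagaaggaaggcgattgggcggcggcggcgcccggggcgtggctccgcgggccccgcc
Herpud1: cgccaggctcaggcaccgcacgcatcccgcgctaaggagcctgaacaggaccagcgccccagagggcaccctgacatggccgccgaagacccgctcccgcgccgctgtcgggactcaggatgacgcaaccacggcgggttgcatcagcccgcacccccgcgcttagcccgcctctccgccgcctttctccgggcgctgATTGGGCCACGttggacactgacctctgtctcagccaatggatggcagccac
The match began 65 bases before the start of Hspa5, 105 before that of Dnajc3, 145 before that of Canx and 52 before that of Herpud1, and the 2 in Hsp90b1 began 212 and 107 bases before it. In epithelial-like cells the ratios of P4 over E16 for the genes with an ERSE ran from 0.407 (Canx) and 0.517 (Hsp90b1) to 1.63 (Creld2) and 2.03 (Dnajc3), so the genes that hold the element did not share a direction.

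In mesenchyme-like cells, the fibroblast-like cells around the epithelium, the same genes lay close together between the stages. This class, too, was made up of different clusters at the 2 stages. Cluster 2 held 7 P4 and 62 E16 cells. Clusters 7, 11 and 13 held 79, 43 and 42 P4 cells, and 10, 5 and 2 E16 cells. All 39 genes together had 12939 CPM at P4 and 12594 CPM at E16, a ratio of 1.03 (0.995 to 1.06), against 11378 CPM at P4 and 9046 CPM at E16 in epithelial-like cells, a ratio of 1.26 (1.21 to 1.30). Of 37 genes measured in mesenchyme-like cells, 1 was at least 2-fold higher at P4, against 7.47% of all genes, and 0 were at least 2-fold lower, against 10.9%. The higher one was Creb3l1, with 244 CPM at P4 and 110 CPM at E16, a ratio of 2.21 (1.62 to 3.06). Sec11c had 35 UMIs at P4 and 20 at E16 there, a ratio of 1.06 (0.597 to 1.94). The next ratios upward were those of Dnajc3 (1.80), Sdf2l1 (1.71) and Manf (1.61), and the interval of Sdf2l1 included 1. Whether the difference between the stages itself differed between the classes could not be tested with 1 library per stage.

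**Figure D2:**
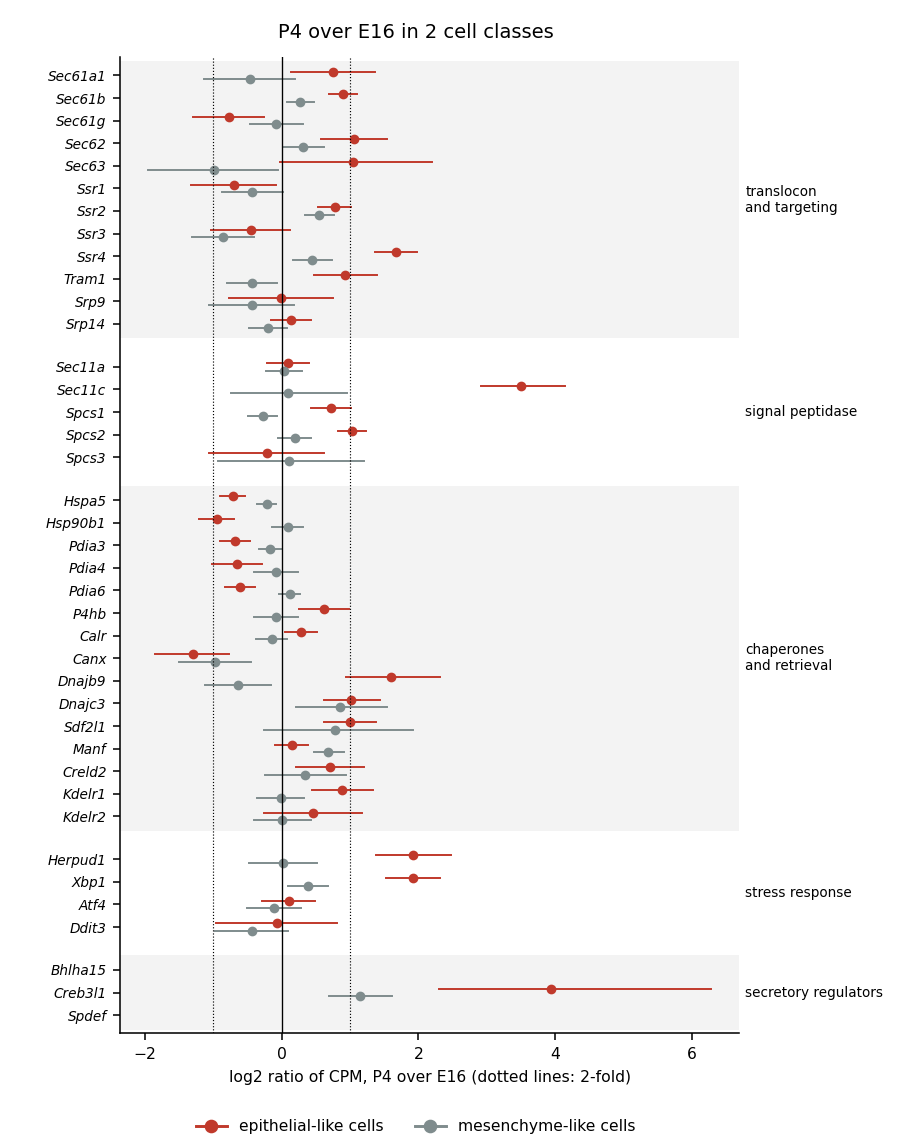
Log2 ratio of CPM, P4 over E16, for each measured gene in epithelial-like cells (red) and mesenchyme-like cells (grey), with 95% counting intervals; dotted lines mark 2-fold. Sec11c, Herpud1, Xbp1 and Creb3l1 lie furthest right in epithelial-like cells, and 36 of the 37 mesenchyme-like points lie between the dotted lines.

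Some other measures moved with the stage in epithelial-like cells. The 12 immediate early and heat shock genes, which tissue dissociation can induce, had 9415 CPM at P4 and 6186 CPM at E16, and in mesenchyme-like cells 14616 CPM at P4 and 12553 CPM at E16. The 15 mesenchyme markers had 1637 CPM in P4 epithelial-like cells and 351 CPM in E16 epithelial-like cells, with 12 of 15 detected in each. The 21 epithelial markers had 11684 CPM in P4 epithelial-like cells and 4739 CPM in E16 epithelial-like cells. Of 8 B or plasma cell markers, 0 had a UMI in P4 epithelial-like cells, and of a separate list of 8 plasma cell genes only Sdc1, which had UMIs in most classes, was found there, with 34 UMIs at P4 and 81 at E16. The part of these measures in the results was not tested.

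The ratios between the stages depended on which epithelial-like clusters were set against each other. Cluster 15 had no E16 cells. Without its 27 P4 cells all 39 genes together had 9075 CPM at P4 and 9046 CPM at E16, a ratio of 1.003 (0.963 to 1.04). The steps within this sum still lay on both sides of 1. The ratio was 1.28 (1.19 to 1.39) for translocon and targeting and 1.55 (1.40 to 1.71) for the signal peptidase. It was 1.79 (1.51 to 2.11) for the stress response and 0.703 (0.663 to 0.746) for chaperones and retrieval. The secretory regulators had 45 UMIs at P4 and 5 at E16. Of 36 genes then measured, 5 were at least 2-fold higher at P4, against 10.6% of all genes, and 4 at least 2-fold lower, against 13.7%, so both counts lay near the share of all genes. The ratio of Sec11c was then 7.95, and Canx, Pdia3, Hsp90b1 and Sec61g were the lower ones. Within cluster 0 all 39 genes together had 6961 CPM in P4 and 6924 CPM in E16, a ratio of 1.005 (0.904 to 1.12). Of 18 genes measured in cluster 0, 0 were at least 2-fold higher at P4, against 8.86% of all genes, and 1 was at least 2-fold lower, against 12.2%. The lower one was Pdia3, with 24 UMIs in P4 and 101 in E16, a ratio of 0.483 (0.296 to 0.760). Spcs2 and Srp14 had ratios of 1.90 (1.30 to 2.77) and 1.72 (1.16 to 2.55), but 1 cell held 38.6% of the Spcs2 and 1 cell 46.0% of the Srp14 UMIs of P4. Without the top cell on each side the ratios were 1.26 and 1.40, and the interval of Srp14 was then 0.819 to 2.38. Sec11c had 16 UMIs in P4 and 4 in E16, too few to be measured there. Cluster 9 held 33 P4 cells with a median of 9693 UMIs and 8 E16 cells with a median of 3902. There 7 of 26 measured genes were at least 2-fold higher at P4, against 17.5% of all genes, and 0 were at least 2-fold lower, against 8.41%. Ssr4 had 148 UMIs in P4 and 5 in E16 (ratio 3.76, interval 1.57 to 11.7), and Sec11c had 123 UMIs in P4 and 5 in E16 (ratio 3.12, interval 1.30 to 9.79). The other 5 were Sec62, Tram1, Sdf2l1, Kdelr1 and Herpud1, each with 1 to 3 E16 UMIs. The totals of cluster 9 held 341220 UMIs in P4 and 43329 in E16, so genes were measured there mainly through their P4 UMIs. This favours genes higher at P4, so the counts of higher and lower genes in cluster 9 cannot be set against each other. The shares of all genes were taken under the same limit. These comparisons by cluster were chosen after values had been seen.

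Set against mesenchyme-like cells, epithelial-like cells had a lower summed level of the chaperones and retrieval receptors at both stages. It was 4679 CPM in epithelial-like and 6808 CPM in mesenchyme-like cells at P4 (ratio 0.687, interval 0.655 to 0.720), and 5401 CPM in epithelial-like and 6865 CPM in mesenchyme-like cells at E16 (ratio 0.787, interval 0.7495 to 0.826). At P4, 3 of 37 measured genes were at least 2-fold higher in epithelial-like cells, against 19.5% of all genes, and 8 were at least 2-fold lower, against 20.9%. At E16 the counts were 2 higher, against 17.2%, and 10 lower, against 18.7%. The median log2 ratio was -0.06 at P4 and -0.53 at E16, where that of all genes was 0.06 and 0.03. Sdf2l1 was higher in epithelial-like cells at both stages, with 290 CPM in epithelial-like and 40.0 CPM in mesenchyme-like cells at P4 (ratio 7.25, interval 4.91 to 11.0) and 145 CPM in epithelial-like and 23.4 CPM in mesenchyme-like cells at E16 (ratio 6.21, interval 3.31 to 12.9). Dnajc3 was likewise higher at both, with ratios of 2.48 at P4 and 2.20 at E16. Sec11c had 470 CPM in epithelial-like and 45.2 CPM in mesenchyme-like cells at P4, a ratio of 10.4 (7.29 to 15.3), and 41.5 CPM in epithelial-like and 42.5 CPM in mesenchyme-like cells at E16, a ratio of 0.976 (0.524 to 1.84).

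The lists of genes at least 2-fold lower in epithelial-like cells were partly different at the 2 stages. The overlap between the stages was not counted for all genes, so it does not set the genes described here apart. Membership also turns on the 2-fold limit, and some ratios, such as 0.493 for Pdia3 at P4, lay close to it. Kdelr2, Ddit3 and Creb3l1 were at least 2-fold lower at both stages. Creb3l1 had 41 UMIs in epithelial-like and 189 UMIs in mesenchyme-like cells at P4, a ratio of 0.303 (0.210 to 0.426), and 3 UMIs in epithelial-like and 52 UMIs in mesenchyme-like cells at E16. Kdelr2 had 70.2 CPM in epithelial-like and 173 CPM in mesenchyme-like cells at P4, and 51.0 CPM in epithelial-like and 172 CPM in mesenchyme-like cells at E16. At P4 the list also held the chaperone genes Hspa5, Pdia3 and Pdia6, with ratios of 0.476, 0.493 and 0.420, and the entry genes Sec61g and Ssr1. At E16 it held Sec62, Sec63, Tram1, Spcs1, Dnajb9, Kdelr1 and Xbp1. Xbp1 had 113 CPM in epithelial-like and 293 CPM in mesenchyme-like cells at E16 (ratio 0.386, interval 0.286 to 0.518), and 429 CPM in epithelial-like and 382 CPM in mesenchyme-like cells at P4 (ratio 1.12, interval 0.942 to 1.34).

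Over the 14 combinations of class and library with at least 10 cells, P4 epithelial-like cells had the highest CPM of 11 of the 39 genes. These were Sec61a1, Sec61b, Ssr4, Sec11c, Dnajc3, Sdf2l1, Creld2, Herpud1, Xbp1, Bhlha15 and Spdef. The share of all genes with their highest CPM in these cells was not computed, so the count of 11 does not set the 39 genes apart. For Ssr4, Creld2 and Bhlha15 the interval lay clear of that of the class with the next highest CPM, and for the other 8 the intervals overlapped. Smaller classes with lower CPM were not compared and have wide intervals. In the P4 T or innate lymphoid class the upper limit for 0 UMIs was 123 CPM, above the 41.4 CPM of Bhlha15 in P4 epithelial-like cells. Ssr4 had 625 CPM in P4 epithelial-like cells and 417 CPM in P4 mesenchyme-like cells, which came next. Sec11c came next in the 18 P4 cells of the T or innate lymphoid class, with 11 UMIs or 367 CPM. That class also had the highest CPM of Spcs1, with 47 UMIs or 1566 CPM, but 1 cell held 83.0% of them, and its values of Spcs2 and Spcs3 overlapped those of the next class. Ddit3 was highest in the 25 E16 cells of cluster 1, with 75 UMIs or 357 CPM, while the 10 P4 cells of that cluster had 0 UMIs. Cluster 1 had mesenchyme markers at 14220 CPM in E16, and it was given no class name in these results. Erythroid-like cells had all 39 genes at 434 CPM in P4 and 434 CPM in E16, but 91.3% and 93.8% of their UMIs came from 11 erythroid markers. With those left out of the totals, a setting added after seeing the data, the levels were 4993 CPM (3369 to 7128) and 6990 CPM (5507 to 8749).

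**Figure D3:**
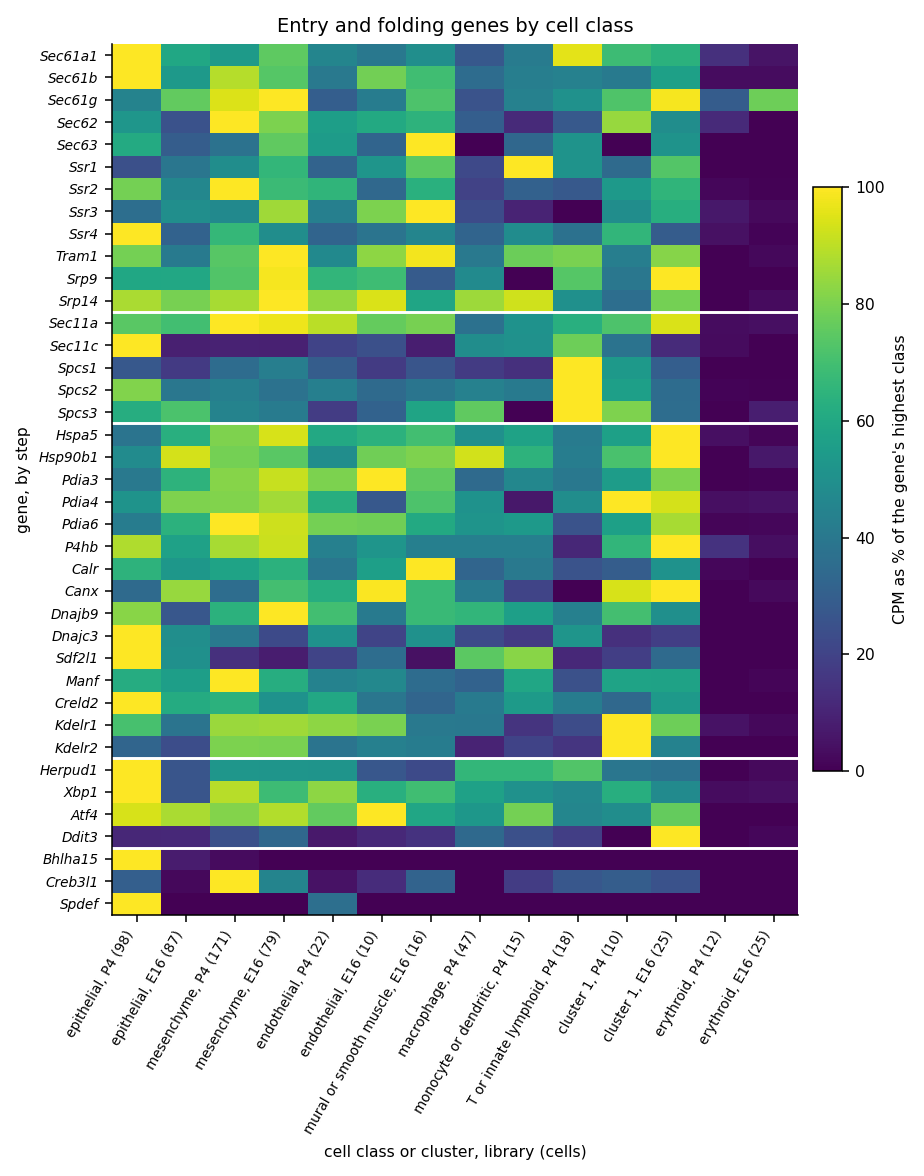
CPM of each gene in the 14 combinations of cell class or cluster and library with at least 10 cells, as a percentage of the gene's highest value; cell numbers stand in brackets and white lines part the steps. P4 epithelial-like cells hold the highest value for 11 genes, and erythroid-like cells, in whose totals 91.3% (P4) and 93.8% (E16) of the UMIs are their own markers, are dark for nearly all of them.

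The P4 epithelial-like cells differed widely in how much of their RNA came from the 5 secretory genes, which encode abundant proteins of saliva and tears. This secretory share was at least 10% of a cell's UMIs in 10 cells, 1 to 10% in 7 and under 1% in 81. No cell lay between 8% and 12%, since the lowest of the 10 was at 18.4% and the next cell at 6.01%, and the highest was at 89.9%. The 81 cells had a median share of 0.121%, close to the 0.105% of other P4 cells, where the highest was 0.685%; in E16 no cell was above 0.0719%. All 10 cells were in cluster 15. The 5 secretory genes were not left out of the clustering and are among the leading genes of that cluster. The placement of the 10 cells is therefore not separate from their secretory share. These 10 cells had a median of 3711 UMIs outside the 5 genes, against 3105 in the 81 cells, and 1 cell held 25.1% of all such UMIs of the 10.

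The 10 cells with a high secretory share had higher levels of entry and folding genes. All 39 genes together had 21320 CPM in cells with a share of at least 10% and 10312 CPM in cells with a share under 1%, a ratio of 2.07 (1.94 to 2.20). Per cell, the 39 genes made up 112 to 395 of 10000 UMIs in the 10 cells (median 190) and 19.0 to 312 in the 81 cells (median 76.7). The lowest of the 10 cells was above the median of the 81, but the ranges overlapped. Of 33 genes measured, 18 were at least 2-fold higher in the 10 cells, against 8.75% of all genes, and 0 were at least 2-fold lower, against 26.5%. The median log2 ratio was 1.05 for the measured genes and -0.43 for all genes. These values leave the 5 secretory genes out of the totals. With all UMIs in the totals every gene of the 10 cells is lowered by 1 common factor, since the 5 genes take up to 89.9% of a cell's total; then 1 gene was higher, against 1.34% of all genes, and 15 of 33 were lower, against 91%. Other markers also differed: the erythroid markers had 7337 CPM in the 10 cells and 2019 CPM in the 81 cells, the epithelial markers 7632 CPM in the 10 cells and 12377 CPM in the 81 cells, and the mural or smooth muscle markers 558 CPM in the 10 cells and 2097 CPM in the 81 cells. Their part in the result was not tested.

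**Figure D4:**
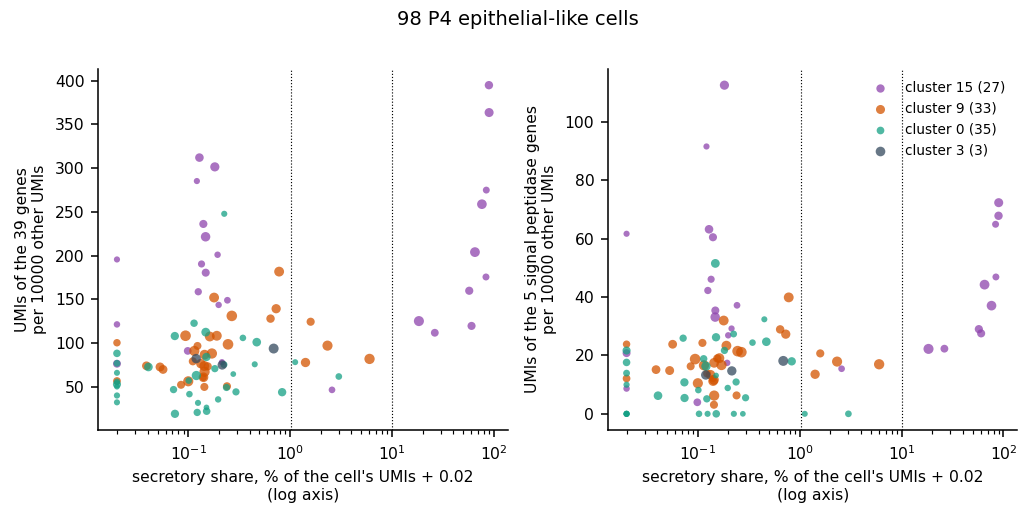
Each point is 1 of the 98 P4 epithelial-like cells, larger where it had more UMIs; the x axis is its secretory share in percent plus 0.02 on a log axis, and the y axis the UMIs of all 39 genes (left) or of the 5 signal peptidase genes (right) per 10000 UMIs outside the 5 secretory genes. Dotted lines mark 1% and 10%; the 10 cells on the right stand at 112 to 395 in the left panel, and several cluster 15 cells on the left stand as high.

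All 5 steps were higher in the cells with a high share, unlike in the comparison of the stages. The translocon and targeting genes had 6680 CPM in the 10 cells and 2991 CPM in the 81 cells (ratio 2.23, interval 1.99 to 2.50). The chaperones and retrieval receptors had 8371 CPM in the 10 cells and 4267 CPM in the 81 cells (ratio 1.96, interval 1.78 to 2.16). The signal peptidase genes had a ratio of 1.88 (1.62 to 2.16) and the stress response genes one of 2.25 (1.80 to 2.79).

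Of the entry genes, Tram1 stood out with 39 UMIs in 7 of the 10 cells and 61 UMIs in 29 of the 81 cells, or 640 and 137 CPM, a ratio of 4.66 (3.04 to 7.08). Ssr4 had 104 UMIs in all 10 cells and 228 UMIs in 52 of the 81 cells, a ratio of 3.33 (2.61 to 4.21). The 3 channel subunits Sec61a1, Sec61b and Sec61g had ratios of 2.73, 2.52 and 2.67, each with an interval above 1. Srp14 had 377 CPM in the 10 cells and 351 CPM in the 81 cells, a ratio of 1.08 (0.662 to 1.67), so targeting and channel genes were not all alike. Sec11c had 74 UMIs in all 10 cells and 173 UMIs in 48 of the 81 cells, or 1215 and 389 CPM, a ratio of 3.12 (2.34 to 4.12), against 1.22 (0.759 to 1.90) for Sec11a. Spcs1 had a ratio of 2.29 (1.65 to 3.13) and Spcs2 one of 1.34 (1.04 to 1.70).

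Of the folding genes, Dnajc3 and P4hb had the highest ratios. Dnajc3 had 62 UMIs in 6 of the 10 cells and 70 UMIs in 27 of the 81 cells, a ratio of 6.46 (4.51 to 9.22), but 1 cell held 56.5% of the 62 and the ratio was 3.77 without the top cell on each side. P4hb had 722 CPM in the 10 cells and 194 CPM in the 81 cells, a ratio of 3.73 (2.53 to 5.43). Manf had 74 UMIs in all 10 cells and 182 UMIs in 50 of the 81 cells, a ratio of 2.97 (2.23 to 3.91). Sdf2l1, Creld2, Pdia6 and Hsp90b1 had ratios of 2.94, 2.73, 2.07 and 2.01, and 1 cell held 59.1% of the Sdf2l1 UMIs of the 10. Hspa5 had 837 CPM in the 10 cells and 677 CPM in the 81 cells, a ratio of 1.24 (0.8997 to 1.67), and the intervals of Calr, Canx, Pdia4, Kdelr1 and Kdelr2 also included 1. Hspa5 was thus lower at P4 between the stages and not distinguishable by secretory share at this depth.

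Xbp1 and Herpud1 were higher in the cells with a high share, as they were at P4. Xbp1 had 60 UMIs in 8 of the 10 cells and 165 UMIs in 43 of the 81 cells, a ratio of 2.65 (1.94 to 3.58), and 1 cell held 41.7% of the 60. Herpud1 had a ratio of 2.38 (1.52 to 3.63), and the interval of Atf4 included 1 (0.877 to 2.52). Creb3l1 had 20 UMIs in 5 of the 10 cells and 17 UMIs in 11 of the 81 cells, a ratio of 8.58 (4.27 to 17.4). Bhlha15 did not follow it, with 1 UMI in the 10 cells and 21 UMIs in the 81 cells, and Spdef had 6 UMIs in the 10 cells and 11 in the 81 cells. Sec63, Srp9, Spcs3, Ddit3, Bhlha15 and Spdef were the 6 genes not measured in this comparison.

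**Figure D5:**
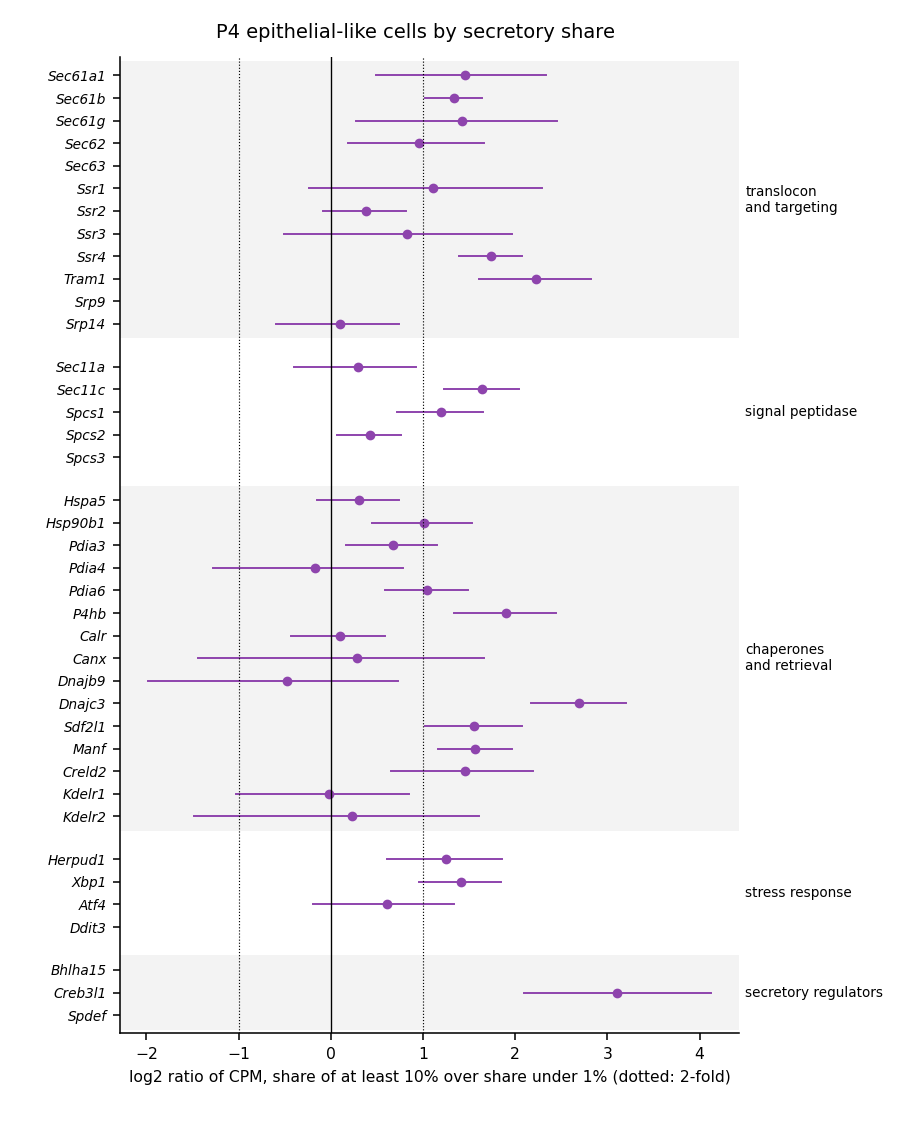
Log2 ratio of CPM, P4 epithelial-like cells with a secretory share of at least 10% (10 cells) over those with a share under 1% (81 cells), for the 33 measured genes, with 95% counting intervals; dotted lines mark 2-fold and rows without a point were not measured. Creb3l1, Dnajc3 and Tram1 lie furthest right, and no gene lies left of the lower dotted line.

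High levels of these genes were not limited to cells rich in the 5 secretory genes. Cluster 15 held 17 further cells with a share under 10%, and in them all 39 genes together had 20706 CPM, against 21320 CPM in its 10 cells with a share of at least 10%, a ratio of 1.03 (0.946 to 1.12) for the high over the low share. Both stood above the 29 cells of cluster 9 with a share under 1%, where the 39 genes had 9702 CPM. Over these 29 cells, 16 of 27 measured genes were at least 2-fold higher in the cells with a share of at least 10%, against 10.2% of all genes, and 12 of 27 in the 17 other cluster 15 cells, against 9.61%. None was at least 2-fold lower in either, against 27.4% and 21.9% of all genes. The 2 comparisons share the 29 cells and were chosen after values had been seen. The 17 cells had high levels of another set of 6 tear proteins (Esp6, Scgb2b2, Scgb2a2, Scgb1b7, Mucl2 and Pip), picked after their values were seen, which had 35559 CPM there and 3890 CPM in the 10 cells.

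Between the 2 kinds of cluster 15 cells the counts of higher and lower genes lay near the share of all genes. Of 22 genes measured, 4 were at least 2-fold higher in the cells with a share of at least 10%, against 16.1% of all genes, and 3 at least 2-fold lower, against 16.1%. Dnajc3 had 62 UMIs in the 10 cells and 11 in the 17 cells, a ratio of 4.24 (2.21 to 8.92), but a single cell held 35 of the 62. Tram1, P4hb and Sdf2l1 had ratios of 2.25, 2.07 and 2.36, and that of Sdf2l1 was 1.43 without the top cell on each side. Spcs2, Pdia3 and Dnajb9 were lower, but a single cell held 45.7% of the Spcs2 UMIs of the 17, a single cell 62.0% of the Pdia3 UMIs and a single cell 85.4% of the Dnajb9 UMIs, and without the top cell on each side the ratios were 0.682, 0.782 and 0.411. The 15 mesenchyme markers had 2511 CPM in the 10 cells and 8650 CPM in the 17 cells, and the 11 erythroid markers 7337 CPM in the 10 cells and 1835 CPM in the 17 cells. The part of cells or RNA of other types in these levels was not tested.

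Other genes of the pathway, 123 of them in 7 lists outside the 39, were counted the same way. In epithelial-like cells 14 of 93 measured were at least 2-fold higher at P4 than at E16, against 11.7% of all genes, and 4 at least 2-fold lower, against 14.4%, with a median log2 ratio of 0.20. Of the 12 oligosaccharyltransferase genes, which attach sugar chains to proteins entering the ER, 0 passed 2-fold in either direction. Tmed3, a cargo receptor for export to the Golgi, had 409 CPM at P4 and 98.9 CPM at E16, a ratio of 4.13 (3.11 to 5.57). Fkbp11, a proline isomerase of secretory cells, had 202 CPM at P4 and 52.6 CPM at E16, a ratio of 3.83 (2.58 to 5.83). Nupr1, a stress-induced nuclear protein, had a ratio of 9.38 (7.02 to 12.8), but also one of 6.53 (4.69 to 9.31) in mesenchyme-like cells. Sec24d, a coat protein of export vesicles, had 9 UMIs at P4 and 48 at E16, a ratio of 0.212 (0.0913 to 0.436).

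By secretory share, 24 of 68 measured genes of these lists were at least 2-fold higher in the 10 cells with a share of at least 10%, against 8.75% of all genes, and 4 at least 2-fold lower, against 26.5%, with a median log2 ratio of 0.72. Of 11 oligosaccharyltransferase genes measured, 5 were higher, among them Ostc (ratio 2.58), Ddost (2.36) and Dad1 (2.35). Of 19 export genes measured, 7 were higher and 1 was lower. Sec23b, a coat protein of export vesicles, had 24 UMIs in the 10 cells and 19 UMIs in the 81 cells, a ratio of 9.21 (4.84 to 17.8). Fkbp11 had 51 UMIs in the 10 cells and 58 in the 81 cells, a ratio of 6.41 (4.31 to 9.51). Vimp, also called Selenos and a part of the removal of misfolded proteins, had a ratio of 4.94 (3.22 to 7.51), and Lman1, a lectin cargo receptor, one of 3.84 (2.38 to 6.07). Atf3 was the other way, with 5 UMIs in the 10 cells and 177 in the 81 cells, a ratio of 0.206 (0.0661 to 0.490), and the immediate early and heat shock genes as a group had 5072 CPM in the 10 cells and 10408 CPM in the 81 cells.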

How the data were processed

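The droplet libraries of pooled lacrimal glands at P4 and E16 were analysed. The deposited files hold whole-number UMI counts per gene and barcode with no normalization, made with Cell Ranger on mm10 per the submitters' processing notes; no version, setting or treatment of reads matching several genes is stated, so members with close copies are uncertain. Barcodes with at least 200 detected genes were kept. Both libraries were clustered together in scanpy 1.11.5 (2000 variable genes without the 39 members, 20 components, 15 neighbours, Leiden resolution 1); 1 doublet was called in E16 and 0 in P4, and it was kept. Clusters were named from 155 of 159 marker symbols found. UMIs were summed per library and class; ratios have exact conditional 95% intervals (scipy 1.17.1), a gene at 0 was set to a floor of 3 counts, and 30 UMIs over both sides were required. The ratio code was tested on simulated counts. Of the other pathway lists, at most 3 genes furthest in the direction of the list's median and 1 furthest the other way were named. The 39 members, the lists and the 2-fold limit were chosen with earlier results of these data known. With 1 library per stage no p-value was computed. Alternatives are given in the closing section.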

Additional observations from a re-analysis of the deposited data

Results flagged for a closer look

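For 3 of the 39 genes the counting interval of the ratio of P4 over E16 lay above 1 in epithelial-like cells and below 1 in mesenchyme-like cells. Tram1 had a ratio of 1.91 in epithelial-like cells and 0.741 in mesenchyme-like cells. Spcs1 had a ratio of 1.65 in epithelial-like cells and 0.825 in mesenchyme-like cells. Dnajb9 had a ratio of 3.04 in epithelial-like cells and 0.641 in mesenchyme-like cells, and 1 P4 epithelial-like cell held 50% of its UMIs there. Without cluster 15, which had no E16 cells, the epithelial-like ratios were 1.25 for Tram1, 1.23 for Spcs1 and 1.24 for Dnajb9. The difference between the classes was not tested, since each stage has 1 library. How many of all measured genes met the same rule was not counted, so the count of 3 does not set the 39 genes apart.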

How the results depend on the processing

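The 10 summary counts (genes at least 2-fold higher or lower in 5 comparisons) were recomputed under alternative scaling, filters and clustering, 158 values in all, of which 128 stayed within 1.5 times the reported count; of 2776 recomputed gene ratios, 16 turned round. The cause of the changes was not tested except where the setting itself sets it.

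With all UMIs in the totals, in which the 5 secretory genes then take a large part of P4 cells, the counts of higher and lower genes were 6 and 8 for P4 over E16 in epithelial-like cells (against 7% and 27.4% of all genes) and 1 and 15 for secretory share (against 1.34% and 91%). By secretory share this scaling lowers every ratio by 1 common factor, so it shifts all of them downward and leaves the order of the genes unchanged. The ratios that turned round therefore say nothing of single genes. They became 0.697 for Sec61a1, 0.642 for Sec61b, 0.681 for Sec61g, 0.551 for Ssr1, 0.848 for Ssr4, 0.795 for Sec11c, 0.583 for Spcs1, 0.512 for Hsp90b1, 0.527 for Pdia6, 0.951 for P4hb, 0.7502 for Sdf2l1, 0.756 for Manf, 0.697 for Creld2, 0.606 for Herpud1 and 0.676 for Xbp1. With cells weighted equally, Sec63 turned to 0.722 for P4 over E16 in epithelial-like cells.

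For P4 over E16 in epithelial-like cells, P4 cells of at least 10% secretory share were then left out. The higher and lower counts were 6 and 2 of 36 genes, against 11.0% and 13.8% of all genes. In alternatives added after seeing the data, they were 5 and 4 of 36 genes without cluster 15, against 10.6% and 13.7%. Also added then was cluster 0 alone, with a higher count of 0 of 18 genes, against 8.86%. In cluster 9 alone the lower count was 0 of 26 genes, against 8.41%. In cluster 9 genes were measured mainly through their P4 UMIs, which disfavours genes lower at P4. The lower count was also 0 with cells weighted equally, against 15.6% of all genes. It was 2 without the cell with the most UMIs on each side, against 13.5%, and 2 at resolution 1.5, against 14.5%. In mesenchyme-like cells the lower count was 2 with at least 500 detected genes, without doublets or with members kept in the clustering. It was also 2 at resolution 1.5 or with 1000 variable genes. Under these settings 13.3% to 13.6% of all genes were lower. The lower count was 1 with cells weighted equally, without the cell with the most UMIs or with each library clustered alone. It was also 1 without the top cell of each gene or with cluster 1 counted as mesenchyme. There 9.23% to 13.9% of all genes were lower. With each library clustered alone the higher count was 0, against 7.80%.

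For epithelial-like over mesenchyme-like cells at P4, the higher count was 5 with at least 10 UMIs, against 22.2% of all genes. It was also 5 with each library clustered alone, against 17.4%. The lower count was 5 with cells weighted equally, against 23.7%. At E16 the higher count was 1 with cells weighted equally, against 17.2%, and the lower count 6 with at least 100 UMIs, against 15.8%. With at least 10 UMIs the lower count by secretory share was 2, against 19.2% of all genes. No paired analysis was possible because each stage has 1 library. Depth limits the scarce regulators most: Bhlha15 and Spdef had 2 and 0 UMIs in E16 epithelial-like cells.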
